A study of Mus musculus with 4 samples.

Results

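Pericyte-like nuclei were studied in 4 mouse single-nucleus RNA libraries from adipose tissue. They were the barcodes with at least 300 genes and under 10% mitochondrial unique molecular identifiers (UMIs) that held a UMI of at least 3 of the 7 genes Rgs5, Abcc9, Kcnj8, Notch3, Pdgfrb, Steap4 and Cox4i2. Barcodes with 3 or more of the 6 smooth muscle genes Myh11, Acta2, Tagln, Cnn1, Lmod1 and Actg2, or 3 or more of the 5 endothelial genes Pecam1, Cdh5, Ptprb, Cyyr1 and Mecom, were left out. The rule found 722 of 36690 barcodes (1.97%). The series asked how the cells of brown and beige fat differ after bariatric surgery. All mice were on a high-fat diet, and the groups were tissue labelled brown adipose (BAT) after surgery, BAT after sham surgery, tissue labelled beige adipose (BeAT) after surgery and BeAT after sham surgery. Each group was 1 library. The labels give no strain, genotype, sex, age, time after surgery or number of animals. Ucp1, the uncoupling protein that defines brown and beige fat cells, had 28 UMIs in BAT surgery, 3 in BAT sham, 1 in BeAT surgery and 4 in BeAT sham outside the 722 nuclei, and 0, 0, 0 and 2 UMIs inside them, so the tissue labels have no support from Ucp1.

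Pericytes are the contractile cells embedded in the basement membrane of capillaries and small venules. Endothelial PDGF-B recruits them through the receptor Pdgfrb, and Notch3 signalling, activated by endothelial Jagged ligands, maintains mural cells. Their ATP-sensitive potassium channel, made of the pore Kcnj8 (Kir6.1) and the regulatory subunit Abcc9 (SUR2), links metabolism to membrane potential, while Rgs5 limits signalling by G-protein-coupled receptors. In fat, perivascular cells lie beside adipocyte progenitors, with which they share Pdgfrb.

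The libraries held 60409801 UMIs in BAT surgery, 47525684 in BAT sham, 23118695 in BeAT surgery and 35675477 in BeAT sham, and the pericyte-like nuclei had medians of 3606, 3647, 6658 and 2736 UMIs in that order. Across the 4 libraries 310 barcode sequences occurred in more than 1 library, 11 pericyte-like barcodes among them. Their median mitochondrial shares were 0.230%, 0.222%, 0.0953% and 0.935%. Scrublet, a doublet score, marked 67 of the 722 nuclei. With 1 library per group nothing below is tested, and every interval is an exact 95% interval that covers counting error only, not the spread between animals.

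The rule took in barcodes of several kinds. Of the 722 nuclei 389 held exactly 3 of the 7 genes, 143 held 4, 93 held 5, 79 held 6 and 18 held all 7, and 1708 barcodes just outside the rule held 2. Out of 28 other mural genes, chosen from knowledge of the cell type, nuclei at exactly 3 rule genes held 4.45 on average, against 3.69 in the barcodes at 2. The mean was 6.86 at 4 rule genes, 9.34 at 5, 10.7 at 6 and 14 at 7. By library, the means at 3 and at 2 rule genes were 4.25 and 2.74 in BAT surgery, 4.51 and 4.08 in BAT sham, 3.95 and 3.27 in BeAT surgery, and 4.68 and 3.66 in BeAT sham. The mean was higher at 3 rule genes in each library, by most in BAT surgery. The smooth muscle condition left out 132 barcodes with 3 or more rule genes, the endothelial one 359, and 67 of these failed both. These left-out barcodes held much of the Rgs5, 48.8% of its UMIs in BAT surgery, 38.2% in BAT sham, 14% in BeAT surgery and 38.2% in BeAT sham, while the pericyte-like nuclei held 14.5%, 21.5%, 57.0% and 17.8%.

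Clustering the 722 nuclei without the rule genes gave 12 groups, of which 2 were led by mural genes. Group 1 (148 nuclei) had the incretin receptor gene Gipr and Pde8b, a phosphodiesterase gene, among its leading genes, and group 3 (75 nuclei) had the transcription factor gene Foxs1, Higd1b and the signalling regulator Rgs4. Together they held 223 of the 722 nuclei (30.9%), and 16 of the 18 nuclei with all 7 rule genes but only 36 of the 389 with 3. The other groups were led by genes of other cells, so the data bear out the label for groups 1 and 3 and not for the whole set. These groups were singled out after their values were seen, and their sizes rest on genes that also differ between libraries, so the sizes are a description. Groups 2 (105 nuclei, led by Sema3a and Prtg) and 7 (46 nuclei, led by Sfrp2 and Gdf10) carried the progenitor genes Pdgfra, at 832 and 493 CPM (a standard scaling of the UMIs of a gene by all UMIs of the set), and Dcn, at 3992 and 7344 CPM, and all of their nuclei held 3 or more of 10 progenitor markers. Pdgfra was at 5 CPM in group 1 and 23 CPM in group 3. Groups 6 (47 nuclei) and 9 (34 nuclei) all held 3 or more of 11 adipocyte markers, and Scrublet marked 18 nuclei in each.

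Groups 4 and 5, with 71 nuclei each, were led by haemoglobin, muscle and capillary genes. Group 4 had a median of only 1025 UMIs, with Hbb-bs at 11132 CPM, and group 5 was led by Rbp7 and Gpihbp1, the capillary anchor of lipoprotein lipase. Rgs5 was nonetheless at 1091 CPM in group 4 and 849 CPM in group 5, against 807 CPM in group 1 and 1689 CPM in group 3. Group 8 (36 nuclei) was led by lymphocyte genes. Groups 10, 11 and 12 came nearly or wholly from 1 library, so each may be that library rather than a cell type. Group 10 held 33 nuclei of BAT surgery with the epididymal gene Gpx5 at 6709 CPM. Group 12 held 28 nuclei of BeAT surgery with Il7, a lymphocyte survival cytokine, at 1054 CPM, Lepr at 527 CPM, the alarmin Il33 at 417 CPM and the chemokine Ccl19 at 308 CPM. Group 11 held 27 nuclei of BeAT surgery and 1 of BAT sham, led by Brinp3 and Tenm2. That 1 barcode had 215701 UMIs, against 20537 in the next deepest pericyte-like barcode of BAT sham, and neuronal adhesion genes such as Lsamp, Nrxn3 and Cntnap2 among its most abundant.

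**Figure D1:**
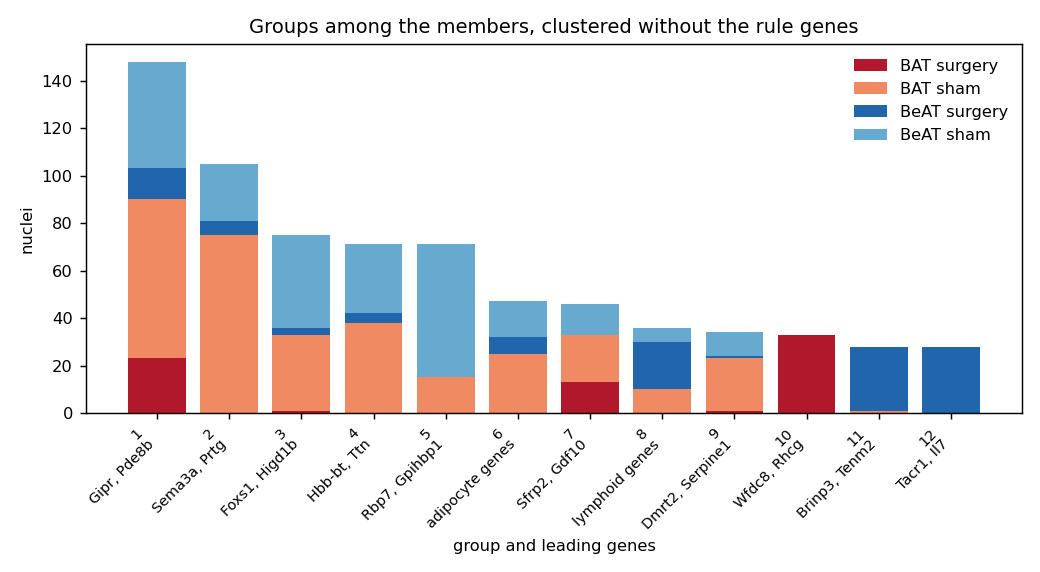
Nuclei (y axis) in each of the 12 groups among the 722 pericyte-like nuclei (x axis, with leading genes), stacked by library. Groups 1 and 3 drew on all 4 libraries, whereas group 10 came from BAT surgery alone and groups 11 and 12 almost only from BeAT surgery.

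The mix of groups differed between libraries. Groups 1 and 3 held 24 of 71 nuclei in BAT surgery, 99 of 305 in BAT sham, 16 of 109 in BeAT surgery and 84 of 237 in BeAT sham, which is 33.8%, 32.5%, 14.7% and 35.4%. The balance of groups 1 and 3 also differed, with 23 and 1 nuclei in BAT surgery, 67 and 32 in BAT sham, 13 and 3 in BeAT surgery, and 45 and 39 in BeAT sham. In BeAT surgery 55 of 109 nuclei fell in groups 11 and 12, against 0 of 237 in BeAT sham.

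Pericyte-like nuclei were a smaller share of the BAT surgery library than of the BAT sham library. The share was 0.714% in BAT surgery (interval 0.558 to 0.900) and 2.93% in BAT sham (2.61 to 3.27), a ratio of 0.244 (0.186 to 0.317), or 4.10-fold lower. In BeAT it was 1.83% in surgery (1.51 to 2.21) and 2.28% in sham (2.0 to 2.59), a ratio of 0.803 whose interval, 0.634 to 1.01, includes 1. Groups 1 and 3 alone were 0.241% in BAT surgery against 0.95% in BAT sham, a ratio of 0.254 (0.155 to 0.400), and 0.269% in BeAT surgery against 0.809% in BeAT sham, a ratio of 0.332 (0.182 to 0.572). Endothelial nuclei, taken by the 5 endothelial genes, had ratios of 0.304 (0.265 to 0.347) in BAT and 0.379 (0.324 to 0.443) in BeAT. Smooth muscle nuclei, taken by the 6 smooth muscle genes, had 1.99 (1.56 to 2.54) and 0.515 (0.308 to 0.828).

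The base of the share mattered in BeAT. When barcodes with 3 or more lymphoid, plasma cell, skeletal muscle or epithelial markers were left out, the base shrank to 2126 barcodes in BeAT surgery and 10109 in BeAT sham, and to 7505 in BAT surgery and 9459 in BAT sham. The share of all pericyte-like nuclei was then 3.81% in BeAT surgery and 2.30% in BeAT sham, a ratio of 1.66 (1.27 to 2.15), in the opposite direction. For groups 1 and 3 the BeAT ratio became 0.906 (0.495 to 1.56). In BAT the ratios stayed below 1 on that base, at 0.276 (0.206 to 0.365) for all pericyte-like nuclei and 0.312 (0.191 to 0.492) for groups 1 and 3. Fewer such cells and more cells of other kinds in a library cannot be told apart.

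**Figure D2:**
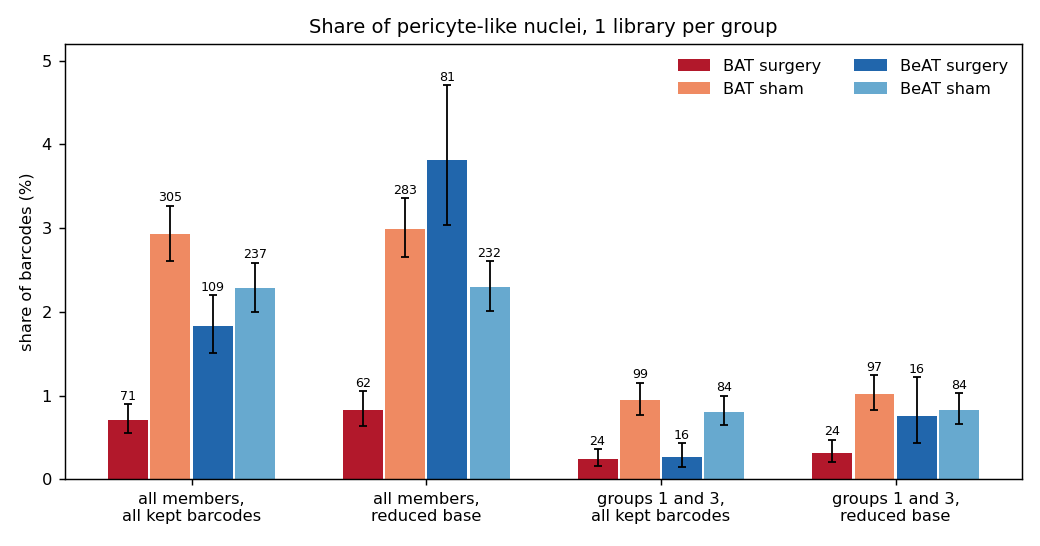
Share of barcodes (%, y axis) that were pericyte-like, for all 722 nuclei and for groups 1 and 3, over all kept barcodes and over the reduced base without lymphoid, plasma, muscle and epithelial barcodes. Bars are single libraries with exact 95% counting intervals and numbers of nuclei; BAT surgery was lowest in each set, at 0.714% against 2.93% in BAT sham for all nuclei.

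The 7 rule genes chose the nuclei, so their levels are given only as a description. In groups 1 and 3 Abcc9 was at 3363 CPM in BAT surgery, 2116 CPM in BAT sham, 4305 CPM in BeAT surgery and 1874 CPM in BeAT sham. Kcnj8 was at 480 CPM in BAT surgery, 313 CPM in BAT sham, 177 CPM in BeAT surgery and 475 CPM in BeAT sham. The rule used both genes, and the Kcnj8 level in BeAT surgery rests on 10 UMIs. Notch3 had 2007, 2108, 2675 and 1690 CPM in the same order of libraries. Pdgfrb had 1613, 1360, 1116 and 1244 CPM. Both receptor genes varied by less than 2-fold across the libraries. Rgs5 had 652 CPM in BAT surgery and 673 CPM in BeAT surgery, against 1241 CPM in BAT sham and 1230 CPM in BeAT sham. It was lower in both surgery libraries than in both sham libraries. Rgs5 was at 1689 CPM in group 3 and 807 CPM in group 1. Group 3 gave 1 of 24 nuclei in BAT surgery and 3 of 16 in BeAT surgery. In BAT sham and BeAT sham it gave 32 of 99 and 39 of 84. The part of this mix was not tested. Steap4, a metalloreductase, had 446, 586, 514 and 460 CPM, and Cox4i2, the hypoxia isoform of a cytochrome oxidase subunit, had 51.5, 108, 106 and 121 CPM. CPM of UMIs in nuclei depend on a gene's length and intron content, so levels are compared here between libraries and not between genes.

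Detection of the rule genes is likewise fixed in part by the rule and is given as a description. In groups 1 and 3 Abcc9 was detected in 100% of nuclei in BAT surgery, 93.9% in BAT sham, 100% in BeAT surgery and 89.3% in BeAT sham. In nuclei with macrophage markers, which should lack it, Abcc9 was detected in 0.842%, 1.33%, 0.917% and 1.08%. The median depth was 2376, 2765, 2967 and 2197 UMIs in groups 1 and 3 and 2984, 2763, 3355 and 2248 UMIs in the macrophage nuclei. Thinned to 1000 UMIs per nucleus, Abcc9 was detected in 100%, 73.4%, 93.8% and 78.5% of groups 1 and 3. In BAT surgery Notch3 was detected in 95.8% of groups 1 and 3 and in 31.3% of epithelial nuclei, whose median depth was 8989 UMIs. Thinned to 1000 UMIs per nucleus, the shares were 76.2% in groups 1 and 3 and 4.57% in epithelial nuclei. In that library all pericyte-like nuclei held 7.40% of all Notch3 UMIs.

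Abcc9 and Kcnj8 lie next to each other on the minus strand of chromosome 6, Abcc9 at chr6:142587862-142702315 and Kcnj8 at chr6:142564837-142571614 (GRCm38, GENCODE M21). The 250 bases before each RefSeq start site are shown because these neighbouring genes form 1 channel. Those of Notch3 are shown because its nuclear effector RBPJ binds the core motif searched. Capitals mark the RBPJ core TGGGAA, or TTCCCA on the other strand, which was found in 5817 of 27025 promoters of this length (21.5%). The RefSeq sequences are from GRCm38.p6, read on the minus strand, at chr6:142702275-142702524 for Abcc9, chr6:142571615-142571864 for Kcnj8 and chr17:32166891-32167140 for Notch3.
Abcc9: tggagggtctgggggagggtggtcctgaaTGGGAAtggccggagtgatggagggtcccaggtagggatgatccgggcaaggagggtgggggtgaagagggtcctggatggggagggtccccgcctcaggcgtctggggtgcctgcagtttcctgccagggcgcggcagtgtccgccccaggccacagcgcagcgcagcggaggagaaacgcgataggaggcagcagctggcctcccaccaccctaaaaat
Kcnj8: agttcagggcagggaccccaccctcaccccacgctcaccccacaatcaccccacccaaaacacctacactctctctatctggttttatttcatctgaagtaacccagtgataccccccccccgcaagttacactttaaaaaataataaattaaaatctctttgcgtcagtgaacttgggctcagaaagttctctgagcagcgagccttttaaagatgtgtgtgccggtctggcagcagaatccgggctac
Notch3: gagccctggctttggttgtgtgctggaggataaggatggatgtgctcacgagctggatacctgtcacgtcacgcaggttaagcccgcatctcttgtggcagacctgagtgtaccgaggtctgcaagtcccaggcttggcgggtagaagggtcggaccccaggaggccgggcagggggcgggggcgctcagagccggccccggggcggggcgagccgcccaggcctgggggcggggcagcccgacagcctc
The RefSeq starts of Abcc9 and Notch3 differ from the GENCODE ones, so the Abcc9 window overlaps the start of the gene as placed above. Abcc9 held 1 match, 221 bases before the RefSeq start site, and the windows of Kcnj8 and Notch3 held 0. A match to these letters is a description and not a binding site.

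Groups 1 and 3 were also described by genes that the rule did not use. Genes outside the rule with at least 20 UMIs from at least 5 nuclei in each of the 3 libraries with 20 or more such nuclei were ranked by their lowest ratio to all other barcodes. Among the 20 highest were Tmem273, Vstm4, Stac, Mrvi1 and Daam2, with lowest ratios between 56.8 and 125. Gucy1a1 and Gucy1b1, the subunits of the nitric oxide receptor guanylate cyclase, and Prkg1, the kinase that cyclic GMP activates, had lowest ratios of 50.5, 43.1 and 26.3. The angiotensin receptor gene Agtr1a had 43.3 and Cacna1c, the pore gene of the L-type calcium channel, 42.2. Gucy1a1 was at 1012 CPM in BAT surgery, 835 CPM in BAT sham, 868 CPM in BeAT surgery and 901 CPM in BeAT sham in groups 1 and 3, against 5.12, 16.4, 7.07 and 17.8 CPM in all other barcodes. Its level thus varied little between the libraries. In smooth muscle nuclei Gucy1a1 was at 33.7, 496, 157 and 299 CPM, and Agtr1a at 13.8, 67.7, 39.2 and 25.8 CPM. Over all 722 nuclei Daam2, Vstm4 and Mrvi1 also had high lowest ratios, of 18.2, 17.8 and 16.1.

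Gipr was added after its values were seen. This receptor of the gut hormone GIP had 6 UMIs in BAT surgery, 57 in BAT sham, 11 in BeAT surgery and 55 in BeAT sham in groups 1 and 3, or 103, 205, 195 and 266 CPM. In smooth muscle, endothelial and progenitor nuclei it was at 0 to 0.855 CPM in the 4 libraries. All pericyte-like nuclei held 31.8%, 63.2%, 83.3% and 48.5% of all Gipr UMIs. Within the 722 nuclei Gipr was concentrated in group 1 (262 CPM) and group 3 (133 CPM).

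**Figure D3:**
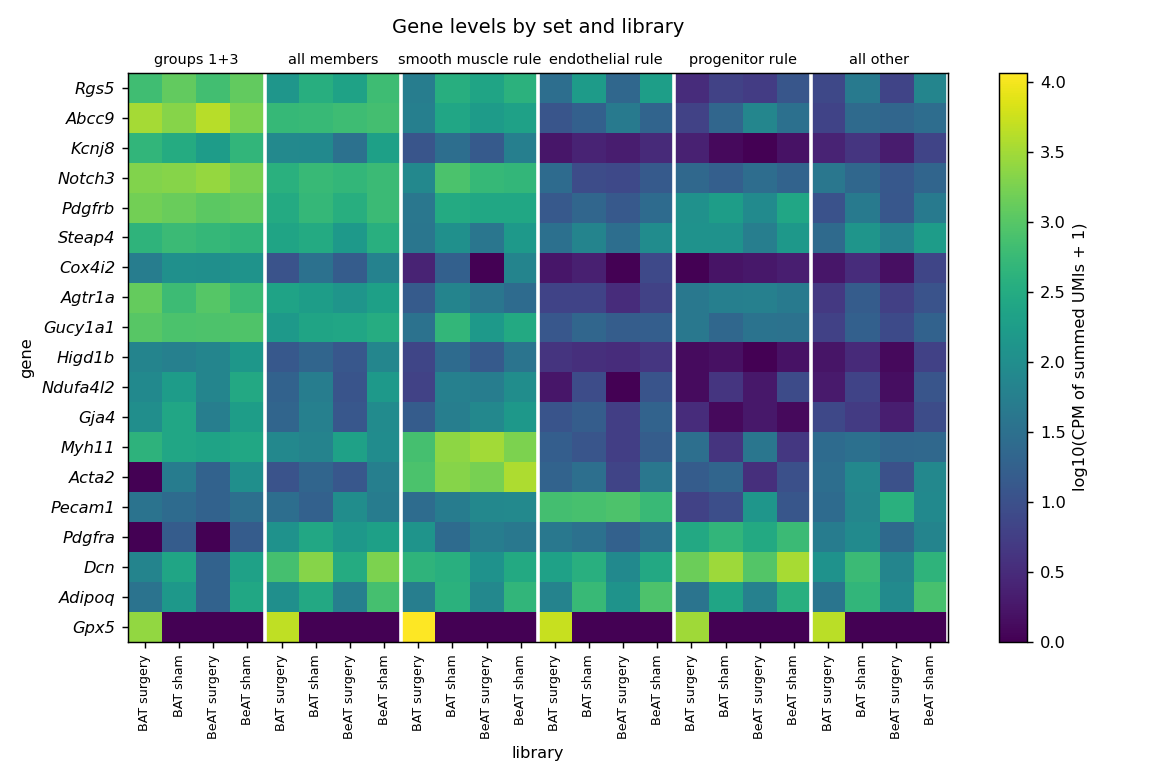
Levels of 19 genes (rows) in 6 sets of nuclei and 4 libraries (columns), as log10 of CPM of summed UMIs plus 1 (colour, log scale). Agtr1a and Gucy1a1 were brightest in groups 1 and 3, Myh11 and Acta2 in smooth muscle nuclei, Pdgfra and Dcn in progenitors, and Gpx5 was seen only in BAT surgery, in every set.

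Markers of other cells were present in groups 1 and 3, and their levels differed between libraries. Of 11 adipocyte markers, 3 or more were held by 12.5% of nuclei in BAT surgery, 53.5% in BAT sham, 12.5% in BeAT surgery and 47.6% in BeAT sham, with summed levels of 1270, 1738, 780 and 2048 CPM. In all other barcodes the shares were higher, at 39.1%, 77.2%, 29.4% and 81.2%. Plin1, Lipe, Pnpla3 and Adrb3 were at 0 in BAT surgery and Cidec, Lipe and Adrb3 in BeAT surgery. Of 12 epididymal markers, 3 or more were held by 12 of 24 nuclei in BAT surgery and none in the other libraries, with a summed level of 3963 CPM in BAT surgery and at most 4.84 CPM elsewhere. In all other barcodes of BAT surgery the share was 82.6%, with a summed level of 12492 CPM. Of 10 progenitor markers, 3 or more were held by 54.2%, 46.5%, 43.8% and 33.3% of nuclei, and by 13.7%, 30.3%, 6.63% and 19.5% of all other barcodes. Their summed levels in groups 1 and 3 were 2951 CPM in BAT surgery, 1767 CPM in BAT sham, 1364 CPM in BeAT surgery and 1811 CPM in BeAT sham. Lama2 and Dcn, named below, are among these markers. Pdgfra had 0 UMIs in groups 1 and 3 of both surgery libraries and 14.4 CPM in BAT sham and 14.5 CPM in BeAT sham. Of the 10 endothelial markers 3 or more were held by 0% to 6.25% of nuclei. The part of these markers in the differences below was not tested.

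In the BAT pair, groups 1 and 3 held more RNA of the receptor genes Agtr1a and Ednrb, the basement membrane genes Lama2 and Hspg2 and the glucocorticoid response gene Fkbp5 in the surgery library. They held less of the chemokine gene Cxcl12, the channel gene Kcnq5 and the clock genes Dbp and Nr1d1. In group 1 alone no clock gene was called lower, but Dbp and Nr1d1 had under 20 UMIs there, too few for a call. The set was small, with 24 nuclei and 58286 UMIs in BAT surgery against 99 nuclei and 277947 UMIs in BAT sham. A call needed 20 UMIs or more over the 2 libraries, a CPM ratio of at least 2-fold and an interval that excluded 1. Of 3534 genes 404 (11.4%) were called, 198 higher (5.6%) and 206 lower (5.83%) in BAT surgery. With median-of-ratios size factors in place of totals, all log2 ratios were lower by 0.25 and 110 genes were higher and 328 lower, so 25.1% of calls were higher in place of 49.0%. In group 1 alone, with 23 against 67 nuclei, 273 of 2504 genes (10.9%) were called, 6.19% higher and 4.71% lower. Past 1.5-fold, with an interval excluding 1, 15.1% of genes in groups 1 and 3 differed, 8.43% higher and 6.68% lower.

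Among 15 measured vasoactive and cyclic nucleotide genes 3 were higher and 2 lower, with a median log2 ratio of 0.28 against 0.01 over all genes. Agtr1a had 75 UMIs, or 1287 CPM, in BAT surgery and 173 UMIs, or 622 CPM, in BAT sham, a ratio of 2.07 (1.56 to 2.73). Ednrb, an endothelin receptor gene, had 223 CPM in BAT surgery and 82.7 CPM in BAT sham, a ratio of 2.70. Pde5a, which degrades cyclic GMP, had a ratio of 3.04. In group 1 alone the 3 ratios were 2.08, 3.09 and 2.96, as large as in both groups together. Ednrb and Pde5a fell short of a call when nuclei were thinned, and Agtr1a, Ednrb and Pde5a had ratios of 1.30, 1.70 and 1.92 when a trend with gene span was taken off. Agtr1a also fell under 2-fold, to 1.73, with size factors. Pde4d, which degrades cyclic AMP, was lower at 0.33, and Npr3, the clearance receptor of natriuretic peptides, had 0 UMIs in BAT surgery, which allows up to 51.5 CPM (3 counts), and 32 UMIs, or 115 CPM, in BAT sham.

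Of 11 measured ion channel and pump genes 1 was higher and 2 were lower. Trpc6, a cation channel gene, had a ratio of 5.48, with its 31 UMIs in BAT surgery from only 2 nuclei. Kcnq5, a voltage-gated potassium channel gene, was lower at 0.46, and in group 1 alone at 0.41. Abcc9 and the chloride channel gene Ano1 had ratios of 1.59 and 1.91, and past 1.5-fold 5 of the 11 genes were higher and 2 lower. Abcc9, 1 of the higher genes, is a rule gene, so its ratio is only a description. Of 9 Notch genes only Hes1, a Notch target, was called, at 0.25, and none of the 8 measured in group 1 alone. Heyl, the mural Notch target, had 309 CPM in BAT surgery and 158 CPM in BAT sham. None of the 3 measured PDGF genes was called.

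Among 17 basement membrane genes 2 were higher and 1 lower, with a median log2 ratio of -0.07. Lama2, a laminin chain gene, had 1218 CPM in BAT surgery and 335 CPM in BAT sham, a ratio of 3.64. It is also a progenitor marker of the list above, and the part of progenitor RNA in its ratio was not tested. Hspg2, which encodes perlecan, had 326 and 101 CPM, a ratio of 3.24. The type IV collagen genes Col4a1 and Col4a2 had ratios of 1.54 and 1.98. Vtn, encoding vitronectin, was lower at 0.29 and Sparc stood at 0.54. Among 17 interstitial matrix genes the crosslinking enzyme gene Loxl2 was higher at 2.17 and Dcn lower at 0.28. Of 8 vessel growth and guidance genes the receptor Robo1 was higher at 2.31, while Cxcl12, a chemokine that retains immune cells, and Angpt1, the endothelial stabiliser, were lower at 0.23 and 0.47. In group 1 alone Cxcl12 and Angpt1 had 0.12 and 0.39. Of 20 other mural markers Pde5a, Trpc6 and Tbx2 were higher and Gja4, a gap junction gene, and Vtn lower. Gja4 had 103 CPM in BAT surgery and 259 CPM in BAT sham, but its ratio of 0.40 became 0.69 in group 1 alone. Of 14 contractile genes only Myl9 was called, lower at 0.21, and Myh11 had 429 CPM in BAT surgery and 255 CPM in BAT sham.

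**Figure D4:**
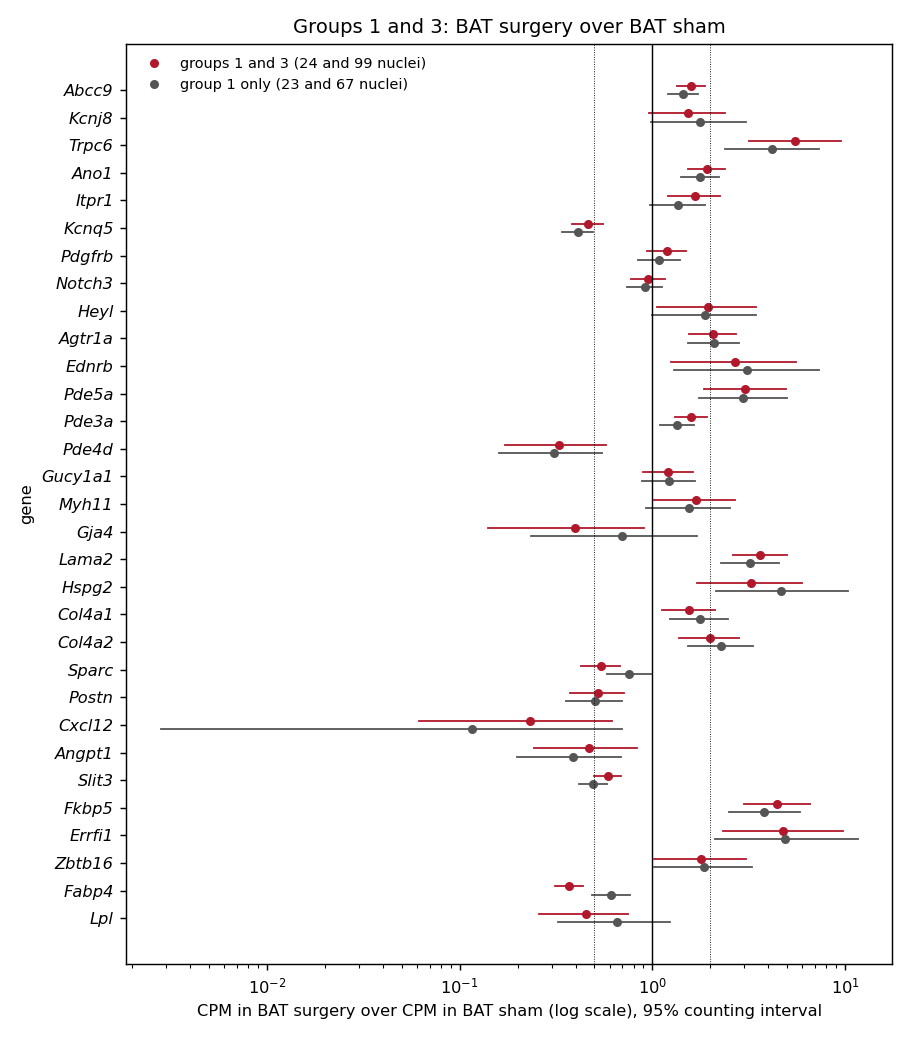
Ratio of CPM in BAT surgery over BAT sham (x axis, log scale) for 31 genes (y axis), in groups 1 and 3 and in group 1 alone, with 95% counting intervals; dotted lines mark 2-fold. Agtr1a, Pde5a, Lama2 and Fkbp5 lay at or above 2-fold in both sets, and Gja4 and Fabp4 moved toward 1 in group 1 alone.

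Of 6 measured glucocorticoid response genes 2 were higher in BAT surgery and none lower. Fkbp5, a chaperone gene induced by glucocorticoids, had 52 UMIs, or 892 CPM, in BAT surgery and 56 UMIs, or 201 CPM, in BAT sham, a ratio of 4.43 (2.98 to 6.58). Its ratio was 8.99 in all other barcodes, in the same direction. Errfi1, a feedback inhibitor of EGF receptors, had a ratio of 4.77 here and 2.44 in all other barcodes, and Zbtb16, a glucocorticoid-induced transcription factor gene, 1.80 here and 0.65 there. Of 10 clock genes 2 were lower, Dbp, a clock output gene, and Nr1d1, a clock repressor gene. Dbp had 0 UMIs in BAT surgery and 31 in BAT sham, and Nr1d1 0 and 33, with 0 allowing up to 51.5 CPM. In group 1 alone, of 8 measured clock genes 1 was called higher and none lower. Dbp and Nr1d1 were not among these 8, as they had under 20 UMIs there, so group 1 alone cannot show whether they differed. In all other barcodes Dbp was at 9.33 CPM in BAT surgery and 88.1 CPM in BAT sham, and Nr1d1 at 4.16 and 48.3 CPM. Fabp4 and Lpl, genes of lipid uptake, were lower at 0.37 and 0.46 among 14 genes, but in group 1 alone had 0.61 and 0.66.

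Of the 404 called genes, those with UMIs in at least 5 nuclei of the higher library were split by their ratio in all other barcodes. There 41 higher and 98 lower ones differed by at least 2-fold in the same direction. The remaining 148 higher and 106 lower ones differed there by less than 2-fold, or in the opposite direction. By ratio the higher ones of that kind were led by Slx4ip (5.83), 8030462N17Rik (5.25), Farsb (5.25), Katnbl1 (4.77), Slc23a2 (4.77), Soga1 (4.59), E130307A14Rik (4.43) and Gramd4 (4.43), each from 9 to 27 UMIs per library. The lower ones were led by the noncoding RNA Meg3, with 0 UMIs in BAT surgery and 122 in BAT sham, and included Slc15a2 (0.09), Chsy3 (0.09) and Csmd1 (0.07), the last from 135 UMIs in only 6 nuclei of BAT sham. Among the higher genes that also differed in all other barcodes were the epididymal genes Gpx5, with 147 UMIs in BAT surgery and 0 in BAT sham, Adam7 (32 and 0), Lcn8 (27 and 0) and Spag11b (22 and 0), and then Spon1, a matrix gene, at 5.60. Among the lower ones was the lipogenic desaturase gene Scd1, at 0.05 both here and in all other barcodes.

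In the BeAT pair groups 1 and 3 held only 16 nuclei and 56449 UMIs in the surgery library, against 84 nuclei and 206520 UMIs in sham, so values are given and no gene was called. Fkbp5 had 673 CPM in BeAT surgery and 208 CPM in BeAT sham, a ratio of 3.23 (2.03 to 5.12). Errfi1 had 602 CPM in BeAT surgery and 77.5 CPM in BeAT sham, a ratio of 7.77 (4.18 to 15.1), and Zbtb16 had 620 and 199 CPM, a ratio of 3.12 (1.93 to 5.03). The median log2 ratio of 6 glucocorticoid response genes was 1.08, against 0.03 over 2876 genes. In all other barcodes Fkbp5, Errfi1 and Zbtb16 had ratios of 4.98, 1.75 and 1.87. Ednrb had 478 CPM in BeAT surgery and 121 CPM in BeAT sham, and Agtr1a 992 and 591 CPM, both higher in the surgery library as in BAT. The rule genes Abcc9 and Kcnj8, given as a description, had ratios of 2.30 (1.95 to 2.70) and 0.37 (0.17 to 0.72). These became 1.69 and 0.30 in group 1 alone, and Kcnj8 had only 10 UMIs in BeAT surgery in groups 1 and 3. The hypoxia and mitochondrial isoform gene Ndufa4l2, a mural marker, had 4 UMIs in BeAT surgery and 59 in BeAT sham, or 70.9 and 286 CPM. It was at 345 CPM in group 3, with 3 nuclei in BeAT surgery and 39 in BeAT sham, and 110 CPM in group 1. The median log2 ratio of 7 genes of that list was -0.99, and of 3 in group 1 alone 0.34. Cxcl12 had 88.6 CPM in BeAT surgery and 353 CPM in BeAT sham. Cxcl12 was thus lower in the surgery library of both tissues.

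**Figure D5:**
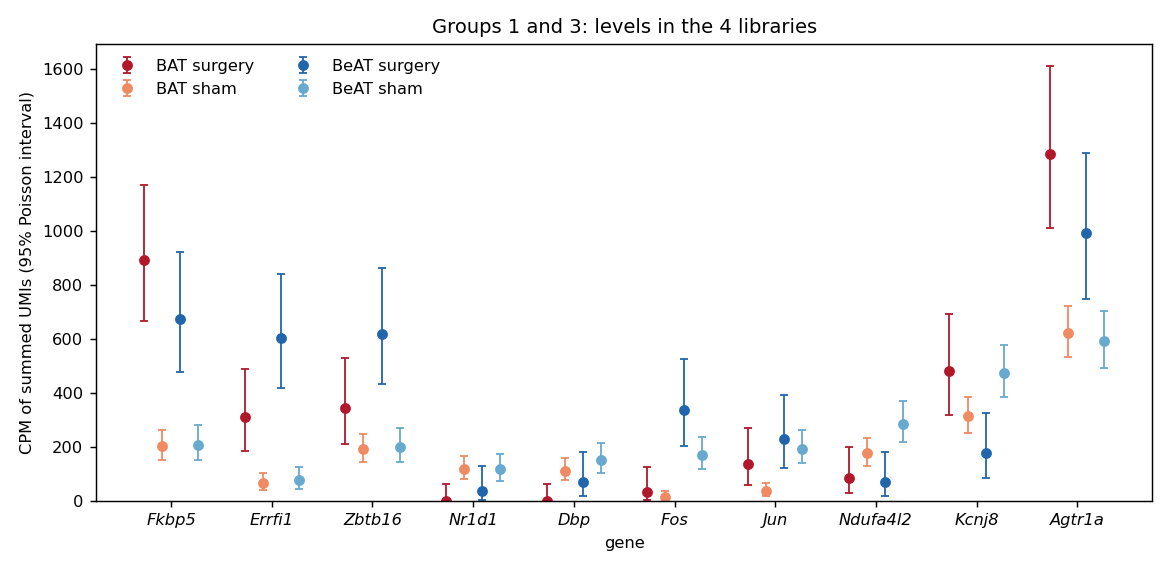
CPM of summed UMIs (y axis) of 10 genes (x axis) in groups 1 and 3, with exact 95% Poisson intervals, 1 point per library. Fkbp5, Errfi1, Zbtb16 and Agtr1a were higher in both surgery libraries than in both sham libraries, and Nr1d1 and Dbp had 0 UMIs in BAT surgery.

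Between the sham libraries groups 1 and 3 held 99 nuclei in BAT sham and 84 in BeAT sham, and differed in immediate early genes and in a few hypoxia and vessel genes. Of 4739 genes 385 (8.12%) were called, 168 higher (3.55%) and 217 lower (4.58%) in BAT sham, and in group 1 alone 198 of 2875 (6.89%), 3.55% higher and 3.34% lower. Size factors turned the balance, with 55.2% of calls higher in place of 43.6%. Of 6 immediate early and heat shock genes, which respond within minutes to stimulation or tissue handling, 3 were lower and none higher. Fos had 14.4 CPM in BAT sham and 169 CPM in BeAT sham, a ratio of 0.08, Jun had 36.0 and 194 CPM, and Junb 28.8 and 102 CPM. In all other barcodes the 3 ratios were 0.40, 0.46 and 0.46. Of 8 hypoxia and mitochondrial isoform genes Ndufa4 (0.32) and Higd1b (0.41) were lower, and Higd1b had 0.75 in group 1 alone. Ndufa4l2 had 176 CPM in BAT sham and 286 CPM in BeAT sham, and Kcnj8 313 and 475 CPM. The angiopoietin gene Angpt2 was higher at 2.06, and at 2.30 in group 1 alone. Flt1 (0.50), S1pr3 (0.44), Hspg2 (0.50) and Acta2 (0.47) were lower, of which Flt1 and Hspg2 missed 2-fold with size factors, both at 0.52. Acta2 is 1 of the 6 smooth muscle genes that the rule uses, so its ratio is only a description. None of the 9 Notch, 3 PDGF, 11 ion channel or 11 clock genes was called past 2-fold.

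Genes that mark body position were sparse in groups 1 and 3. Tbx15, a transcription factor gene of subcutaneous and brown fat, had 0 UMIs in both surgery libraries, 17 in BAT sham and 22 in BeAT sham, or 61.2 and 107 CPM in the sham libraries against limits of 51.5 CPM in BAT surgery and 53.1 CPM in BeAT surgery. Wt1, a gene of visceral mesenchyme, had 0 UMIs in all 4 libraries. Nr2f2, a gene of venous and mesenchymal identity, had 223 CPM in BAT surgery and 475 CPM in BAT sham, a called ratio of 0.47 that became 0.58 in group 1 alone, and 266 CPM in BeAT surgery and 295 CPM in BeAT sham.

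Over all pericyte-like nuclei the comparisons set different mixes of the 12 groups against each other. In BAT 2329 of 10764 genes (21.6%) were called, 1096 higher (10.2%) and 1233 lower (11.5%) in surgery, from 71 nuclei in BAT surgery and 305 in BAT sham. Of 21 basement membrane genes none was higher and 7 were lower, with a median log2 ratio of -0.84 against 0.05 over all genes, whereas in groups 1 and 3 the median of 17 such genes was -0.07. Of 23 interstitial matrix genes 3 were higher and 10 lower, Dcn among them with 737 CPM in BAT surgery and 2123 CPM in BAT sham. Groups 2 and 7, rich in progenitor genes, held 13 of 71 nuclei in BAT surgery and 95 of 305 in BAT sham. Of 17 clock genes 2 were higher, Npas2 and Arntl, and 6 lower. Epididymal markers, 3 or more of 12, were held by 71.8% of nuclei in BAT surgery and 0.328% in BAT sham, with summed levels of 10746 and 116 CPM. In all other barcodes the shares were 82.6% and 0%, with 12492 and 12.9 CPM. Gpx5 (2385 UMIs in BAT surgery and 0 in BAT sham), Adam7 (1511 and 0), Gm1110 (1144 and 0), Lcn5 (777 and 0) and Spag11b (732 and 0) led the higher genes, and Hmcn1 (ratio 27.0), C6 (12.7) and Rnf144b (8.88) led those that differed by less than 2-fold in all other barcodes. The lowest ratios, of Fgf14, Sgcz, Lrp1b, Lingo2 and Cdh18, came with 1 to 3 UMIs in BAT surgery. The single deepest barcode held 13.8% of the UMIs of the BAT sham nuclei. It held 1185 of their 1337 Fgf14 UMIs, 1326 of 1332 for Sgcz and 1351 of 1396 for Lrp1b.

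In BeAT 3414 of 9714 genes (35.1%) were called over all pericyte-like nuclei, 1566 higher (16.1%) and 1848 lower (19.0%) in surgery, from 109 against 237 nuclei. Over all these nuclei most measured inflammatory genes were higher and most other mural markers lower in the surgery library. Of 13 measured inflammatory genes 10 were higher, and Steap4, a rule gene, was lower, with a median log2 ratio of 1.61 against 0.10 over all genes. Il33 had 186 UMIs in BeAT surgery and 0 in BeAT sham, and Ccl19 107 and 0. Il1r1, the interleukin-1 receptor gene, had 863 CPM in BeAT surgery and 231 CPM in BeAT sham, and Vcam1, Icam1, Relb and Nfkb1 had ratios of 3.04, 5.09, 3.94 and 3.05. In groups 1 and 3 Il33 and Ccl19 had 0 UMIs in all 4 libraries, so those UMIs lay in other nuclei. Of 24 other mural markers 1 was higher and 15 lower, of 10 hypoxia and mitochondrial isoform genes 6 were lower, and of 19 basement membrane genes 1 was higher and 13 lower. The median log2 ratios over all these nuclei were -1.47 for other mural markers and -1.25 for basement membrane genes. In groups 1 and 3 the same pair had medians of -0.15 for 23 other mural markers, -0.29 for 15 basement membrane genes and 0.35 for 4 inflammatory genes. The largest ratios belonged to genes of groups 11 and 12 such as Nxph1 (773), Adgrb3 (616), Robo2 (332), Lepr (268) and Tenm2 (249), each with 1 or 2 UMIs in BeAT sham. The haemoglobin genes led the lower ones, Hbb-bs with 14 UMIs in BeAT surgery and 3399 in BeAT sham. Lymphocyte markers were held by more nuclei, 3 or more T or NK markers by 20.2% in BeAT surgery and 2.11% in BeAT sham. In all other barcodes those shares were 33.5% and 2.13%.

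Between the sham libraries 2134 of 10982 genes (19.4%) were called over all pericyte-like nuclei, 1045 higher (9.52%) and 1089 lower (9.92%) in BAT sham. Without the deepest barcode 1350 of 10352 genes were called, 504 higher and 846 lower. Among the genes with the largest ratios were Sgcz (707), Nlgn1 (208), Cntnap2 (144) and Lrp1b (123), with BAT sham UMIs in 5 to 16 nuclei. Nearly all of these UMIs lay in that 1 barcode for Sgcz (1326 of 1332), Cntnap2 (2164 of 2179) and Lrp1b (1351 of 1396). Of 24 other mural markers none was higher and 6 were lower in BAT sham, and of 10 hypoxia and mitochondrial isoform genes 4 were lower. Haemoglobin and capillary genes led the lower ones, Hbb-bs with 217 CPM in BAT sham and 4102 CPM in BeAT sham, Rbp7 with 10.9 and 113 CPM, and Gpihbp1 with 31.4 and 244 CPM. Group 5, which those capillary genes lead, held 15 nuclei of BAT sham and 56 of BeAT sham.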

How the data were processed

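Nuclear RNA was measured in 4 libraries, 1 per group. The authors deposited UMI counts per gene and barcode, and the submitters' processing notes name Seurat 4.4.0 and the build mm10; for the aligner and counter the sources used here give no name. The members and gene lists were chosen with earlier results of these data known. Counts were summed per library and set of nuclei with Python 3.11.15, numpy 2.4.6, scipy 1.17.1 and pandas 2.3.3, and scaled to CPM of the set's total. Ratios have exact conditional 95% intervals and shares exact Clopper-Pearson ones. A gene was called at 20 UMIs or more, 2-fold or more and an interval excluding 1, with at least 20 nuclei per library. Nuclei were clustered with numpy, igraph 0.11.9 and leidenalg 0.10.2 (2000 variable genes, 20 components, 15 neighbours, Leiden resolution 0.8) without the rule genes. Thinned values use 1000 UMIs per nucleus. Scrublet, run in scanpy 1.11.5, marked the top 6% of each library, and marked nuclei were kept. The text names the rule genes, the 20 genes with the highest lowest ratio over other barcodes, up to 8 extreme called genes per direction, pair and kind, and list genes; Gipr was added later, and a few genes that the rule picks are not reported here. Gene positions are from GENCODE M21, and promoters are from RefSeq. The scripts were tested on simulated data.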

Additional observations from a re-analysis of the deposited data

Results flagged for a closer look

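Over all pericyte-like nuclei 7 list genes were called in opposite directions in the BAT and BeAT pairs, and so was the share on the reduced base, by its interval. The differences between the pairs were not tested. The share on the reduced base had a ratio of 0.276 in BAT and 1.66 in BeAT. The immediate early gene Fosb had 0 in BAT and 3.19 in BeAT, the adhesion gene Icam1 0.317 and 5.09, the metallothionein gene Mt2 3.37 and 0.236, and the mural transcription factor gene Tbx2 2.54 and 0.327. The phosphodiesterase gene Pde4b had 0.258 and 3.16, the guidance receptor gene Robo1 0.244 and 5.61, and the calcium release channel gene Ryr2 0.0138 and 3.495. Without the deepest barcode of BAT sham, the BAT ratios of Pde4b, Robo1 and Ryr2 were 1.80, 0.628 and 0.228. Of 58 list genes called in both pairs, 51 had the same direction and 7 the opposite one.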

How the results depend on the processing

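The share of pericyte-like nuclei in BAT stayed lower in surgery under every alternative run. In BeAT its ratio of 0.803 became 0.468 with at least 2 of the 7 genes, 0.698 with at least 4, 0.302 in thinned nuclei, 0.332 in groups 1 and 3, 1.02 when nuclei with markers of other classes were left out and 1.66 on the reduced base. Called genes over all pericyte-like nuclei in BAT, 2329 of 10764 (21.6%), became 1525 at 50 UMIs, 836 with at least 4 rule genes and 448 thinned. They became 404 of 3534 (11.4%) in groups 1 and 3 and 273 of 2504 (10.9%) in group 1. Fewer genes reached the minimum in these settings and in those that follow, so a lower count is not by itself a lower share. In BeAT 3414 of 9714 (35.1%) became 2183 at 50 UMIs, 509 without nuclei of other classes and 1221 thinned. In the sham pair 2134 of 10982 (19.4%) became 1384 at 50 UMIs, 1121 with at least 4 rule genes, 115 without nuclei of other classes and 575 thinned. They became 385 of 4739 (8.12%) in groups 1 and 3, 198 of 2875 (6.89%) in group 1 and 1350 without the deepest barcode. Among the list medians (log2) that turned direction were immediate early genes in BAT with no minimum (0.0146). Those genes also turned in the sham pair with the span trend taken off (0.12). Basement membrane turned in BAT without nuclei of other classes (0.0611). Interstitial matrix turned in BAT in groups 1 and 3 (0.24) and in group 1 (0.22). In BeAT, vasoactive genes turned in groups 1 and 3 (0.0844) and hypoxia genes in group 1 (0.34). Some smaller medians over all pericyte-like nuclei also turned in groups 1 and 3. In BeAT glucocorticoid response genes went from -0.26 (14 genes) to 1.08 (6 genes), and immediate early genes from -0.44 to 0.99. In BAT ion channel genes went from -0.18 to 0.62 and vasoactive genes from -0.37 to 0.28. In groups 1 and 3, Tbx2 turned to 0.96 in BAT with the span trend taken off and Flt1 to 2.03 in the sham pair without nuclei of other classes. The causes were not tested. Of 428 checks on single genes in groups 1 and 3, 343 kept the same state, called or not called. A call was lost in 63 and gained in 20, and a called gene turned direction in 2. Genes not called in the main run count as kept even where their direction changed, so 343 is not a number of calls kept. Under 20 nuclei a library gave no calls: BeAT groups 1 and 3, and BAT without nuclei of other classes (7 against 30 nuclei). Groups 1 and 3, group 1 alone and the deepest barcode were alternatives chosen after seeing the data. No paired analysis was possible because each group is 1 library. The 24 and 16 nuclei of groups 1 and 3 in the surgery libraries set a detection limit of 51.5 CPM in BAT surgery and 53.1 CPM in BeAT surgery (3 counts).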
